A study of Homo sapiens with 6 samples.

Results

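The genes of the methionine cycle and of transsulfuration were followed in HepG2, a human cell line from a liver tumour that keeps many hepatocyte traits. They were chosen by gene symbol (MAT1A, MAT2A, MAT2B, AHCY, MTR, MTRR, CBS, CTH, BHMT and GNMT). Each of the 10 symbols matched 1 of the 60612 genes in the deposited table, and all 10 passed the filter on low counts. Of the 6 libraries, 3 came from cells infected with lentivirus carrying a control shRNA, and 3 from cells infected with lentivirus carrying an shRNA against circPRKAA1, a circular RNA of the PRKAA1 gene. Both groups are labelled as wild type, both went through infection, and the labels give no time after infection and no clone. The title links circPRKAA1 to fatty acid synthesis through Ku80/Ku70/SREBP1. The design asks how gene expression differs when the circle is knocked down.

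In the methionine cycle, methionine adenosyltransferases join methionine and ATP into S-adenosylmethionine (AdoMet), the methyl donor of most methyltransferases. Transfer of the methyl group leaves S-adenosylhomocysteine, which AHCY splits into adenosine and homocysteine. Homocysteine is then methylated back to methionine, or is led into cysteine by transsulfuration through CBS and CTH. Normal adult hepatocytes make AdoMet chiefly with the MAT1A product, while MAT2A serves most other tissues, dividing liver cells and liver tumours. The liver is also the main site of BHMT and GNMT.

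The results turn on the pair MAT1A and MAT2A, so their promoters are shown for comparison of base composition. The stretches are the 250 bases before each annotated start, from RefSeq on GRCh38.p14, at chr10:80289659-80289908 on the minus strand for MAT1A and chr2:85538918-85539167 on the plus strand for MAT2A. Capitals mark the letters CCAAT on either strand.
MAT1A promoter: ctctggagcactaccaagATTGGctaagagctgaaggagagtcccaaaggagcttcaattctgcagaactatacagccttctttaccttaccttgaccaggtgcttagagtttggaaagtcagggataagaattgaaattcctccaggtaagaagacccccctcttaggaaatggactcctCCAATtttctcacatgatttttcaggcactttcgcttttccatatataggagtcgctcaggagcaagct
MAT2A promoter: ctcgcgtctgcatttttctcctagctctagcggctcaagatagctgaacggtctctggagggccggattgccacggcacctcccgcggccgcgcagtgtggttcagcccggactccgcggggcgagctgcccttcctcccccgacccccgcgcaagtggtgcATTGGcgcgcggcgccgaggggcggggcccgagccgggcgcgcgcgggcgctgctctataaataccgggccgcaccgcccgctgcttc
The 300-base window of MAT1A, which adds 50 bases after the start, held 3 CG dinucleotides and 48.0% G and C. That of MAT2A held 43 and 71.0%. Over all 35116 windows the median was 14 CG dinucleotides and 58.7% G and C. RefSeq windows were found for 9 of the 10 members by symbol, 15 windows in all, and MTRR had none. CCAAT stood in 9 of these 15 windows on either strand, against 34.6% of all windows. The letters CACGTG (E-box), TGATGNAA (ATF4 with CEBP) and TCACNCCAC (SREBP) were in 0 of the 15, against 7.26%, 3.62% and 1.13% of all windows. TGACNNNGC (NRF2) was in 1 of the 15, a window of CBS, against 13.3% of all. All were searched on both strands. The TGACNNNGC match and the CCAAT matches of CBS lie in different windows, so matches of different motifs did not overlap. The MTR windows overlap each other and hold the same CCAAT matches, and the 9 windows with CCAAT belong to 7 members. In MAT1A the CCAAT matches start at -232 and -69 from the gene start, and in MAT2A the match starts at -88.

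MAT2A messenger RNA is known to carry hairpins in its 3′ UTR that the RNA methyltransferase METTL16 binds. It methylates them when AdoMet is plentiful, and when AdoMet is short it stays bound, which promotes splicing of MAT2A. Since this is the best known control of MAT2A RNA, its sites are shown. The letters TACAGAGAA, searched on the sense strand, occurred 5 times in the 2819 bases of transcript MAT2A-201 (GENCODE 29, GRCh38), each time in the 3′ UTR. The first starts at base 85543812 and the last ends at base 85545130 of chromosome 2. They are given with 10 bases on either side, capitals marking the 9 letters.
MAT2A site 1: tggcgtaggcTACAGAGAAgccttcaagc
MAT2A site 2: tgtgatgtcaTACAGAGAAgtcacagggc
MAT2A site 3: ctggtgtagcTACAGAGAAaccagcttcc
MAT2A site 4: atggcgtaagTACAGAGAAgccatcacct
MAT2A site 5: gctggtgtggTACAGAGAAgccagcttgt
Of 83129 protein-coding transcripts, 1783 (2.14%) held these letters at least once, and 2 held them 5 times or more, MAT2A-201 among them. A match of letters is a description and not evidence of binding in these cells.

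Depth was 16284262 to 20282496 counts in control libraries and 16348435 to 17549690 in knockdown libraries, so for the weakest member, GNMT, a level rests on 14 to 38 counts. Counts were found for 21073 to 22254 genes in control and for 23788 to 24190 in knockdown libraries, and mitochondrial genes took 9.44 to 9.80% and 10.1 to 11.1% of counts. All 10 hepatocyte markers on the marker list were detected in every library, with a summed level of 26524 to 28497.5 CPM in control and 31436 to 32566 CPM in knockdown libraries (CPM of library totals). The markers did not move together: ALB went from 4754 to 6567 CPM in control to 7074 to 7425 CPM in knockdown libraries. APOB, TF, SERPINA1 and FGB were likewise higher without overlap. APOA1 went from 3342 to 3990 CPM to 1857 to 1992 CPM and HNF4A from 385 to 408 CPM to 155 to 165 CPM, and TTR and KRT18 were lower too, each without overlap. AFP overlapped between the groups on this scale. The TMM factors were 0.918 to 0.9467 in control and 1.053 to 1.082 in knockdown libraries. On the TMM scale used below these rises are therefore smaller and these falls larger. There ALB, TF, SERPINA1 and the sum overlap between the groups, and AFP is lower in knockdown libraries without overlap. Markers of other cell types were low: of 4 fibroblast and 3 endothelial markers the highest sum was 6.95 CPM. Of the 4 leukocyte markers PTPRC reached 0.411 CPM, and LYZ made up nearly all of their sum of 651 to 801 CPM. The part of these shifts in the results was not tested. The circle has no row in the table, so its knockdown was not checked here. In bulk RNA, fewer cells of a kind and less RNA per cell cannot be told apart. The labels do not tie the 3 libraries of each group to separate cultures, and p-values therefore cover only a spread between libraries that may be technical.

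In the libraries labelled as knockdown 6 of the 10 members fell (MAT1A, AHCY, GNMT, BHMT, CBS and CTH), 1 rose (MAT2A), and MAT2B, MTR and MTRR did not pass. The test was edgeR's quasi-likelihood test on all 14990 genes tested, with Benjamini-Hochberg adjusted p under 0.05. Of all these genes 68.4% passed, 36.1% as higher and 32.4% as lower, so the share of members that passed at all (7 of 10) lies near the background. The median log2 fold change of the members was -0.58, and that of all genes tested 0.05. With offsets for GC content and length, 1 member was higher (35.4% of all genes) and 7 lower (33.8%). With library totals 3 were higher (45.5%) and 5 lower (23.7%). CPM of the groups did not overlap in 9 members (72.1% of all genes tested), lower in 6 (34.1%) and higher in 3 (38.0%). Levels below are CPM scaled by TMM (edgeR's factors for composition), and each log2 change is knockdown against control. Values with offsets, which remove a trend with GC content and length in each library, are given beside the main value for each member, and for the genes around the cycle in the paragraph on their list.

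**Figure D1:**
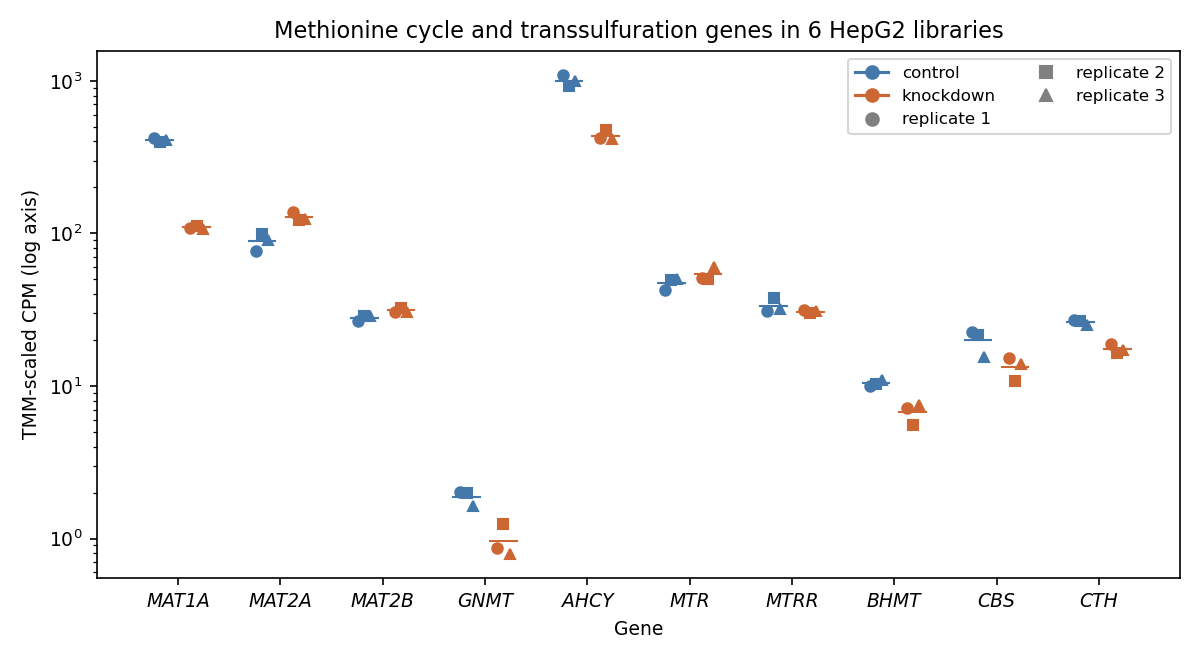
Level of each member in the 6 libraries, as TMM-scaled CPM on a log axis, with a line at each group mean (n = 3). MAT1A and AHCY lie far lower in all 3 knockdown libraries, MAT2A lies higher, and the control and knockdown points of MTRR overlap.

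Among the enzymes that make AdoMet, the liver gene fell and the widely expressed gene rose. MAT1A encodes the liver methionine adenosyltransferase (ENSG00000151224, GRCh38 chromosome 10, 80271820 to 80289658, minus strand). Control libraries gave 422, 399 and 409 CPM, and knockdown libraries 109, 112 and 107 CPM. The control libraries were all far above the knockdown libraries, and the spread within each group was small beside the gap. The log2 change was -1.91 (SE 0.07, edgeR adjusted p = 9.13e-12), which is 3.75-fold lower, and -1.65 with offsets. Ranked from the lowest log2 change, MAT1A stood at 0.687% of all genes tested, itself included. Over 19 alternatives its log2 change ranged from -1.97 to -1.61, the least with TPM scaling, and passed in each.

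MAT2A encodes the catalytic subunit found in most tissues (ENSG00000168906, chromosome 2, 85539168 to 85545281, plus strand). Its levels were 76.4, 98.6 and 90.4 CPM in control and 139, 122 and 124 CPM in knockdown libraries. The lowest knockdown library lay above the highest control library, and control replicate 1 was the lowest of all. MAT2A rose by 0.53 (SE 0.09, edgeR adjusted p = 8.37e-05), 1.45-fold, and with offsets by 0.49. With TPM scaling the rise was 0.82, and it passed in all 19 alternatives. Its exons share 558 bases (12.4% of them) with GGCX on the other strand, and no strand setting of the counting is given. GGCX, the vitamin K-dependent gamma-glutamyl carboxylase, went the other way, from 82.0 ± 5.41 to 66.8 ± 3.02 CPM (SD, n = 3; log2 change -0.29, edgeR adjusted p = 0.00353, passing in 15 of 19 alternatives, with p up to 0.991). METTL16, singled out for its role on MAT2A, had 31.9 ± 1.31 CPM in control and 32.6 ± 2.14 CPM in knockdown libraries (SD, n = 3). METTL16 did not pass (log2 change 0.03, edgeR adjusted p = 0.797, with 0.977 the highest over its alternatives). It passed as higher with TPM scaling (0.32, edgeR adjusted p = 0.0109) and with library totals (0.23, edgeR adjusted p = 0.0339).

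MAT2B encodes a regulatory subunit that binds the MAT2A product (ENSG00000038274, chromosome 5, 163503114 to 163519354, plus strand). Its levels were 26.6, 28.7 and 28.6 CPM in control and 30.7, 32.6 and 30.5 CPM in knockdown libraries. The groups did not overlap, but the difference of 0.16 did not pass (95% interval -0.03 to 0.35, edgeR adjusted p = 0.124). It passed as higher in 6 of 19 alternatives, among them library totals (0.36). With offsets it passed as lower (-0.39, edgeR adjusted p = 0.000446), with adjusted p up to 0.397 over the alternatives. These calls conflict, so no direction is given for MAT2B. With a GC content of 36.4%, its transcript is the poorest in G and C among the members, and a part of this in the conflict was not tested.

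Per exonic length as deposited, MAT1A stood at 106, 103 and 104 FPKM in control and at 32.1, 32.2 and 31.5 FPKM in knockdown libraries. A comparison between genes rests on that length, which was 4485 bases for MAT2A, while transcript MAT2A-201 has 2819. MAT2A stood at 15.6, 20.8 and 18.8 FPKM, and at 33.4, 28.5 and 29.9 FPKM. In FPKM MAT1A thus lay above MAT2A in every control library, while in the knockdown libraries their ranges overlapped. The MAT1A share of the sum of both was 87.1, 83.2 and 84.7% in control and 49.0, 53.0 and 51.3% in knockdown libraries. The mean share went from 85.0 ± 1.97% to 51.1 ± 2.00% (SD, n = 3), and with offsets the knockdown mean was 53.8%. The sum itself went from 123 ± 1.29 to 62.5 ± 2.55 FPKM (SD, n = 3). This sum depends on the scaling between libraries, while the share does not. The sum, the share and the overlap of MAT1A with MAT2A all depend on the lengths used.

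**Figure D2:**
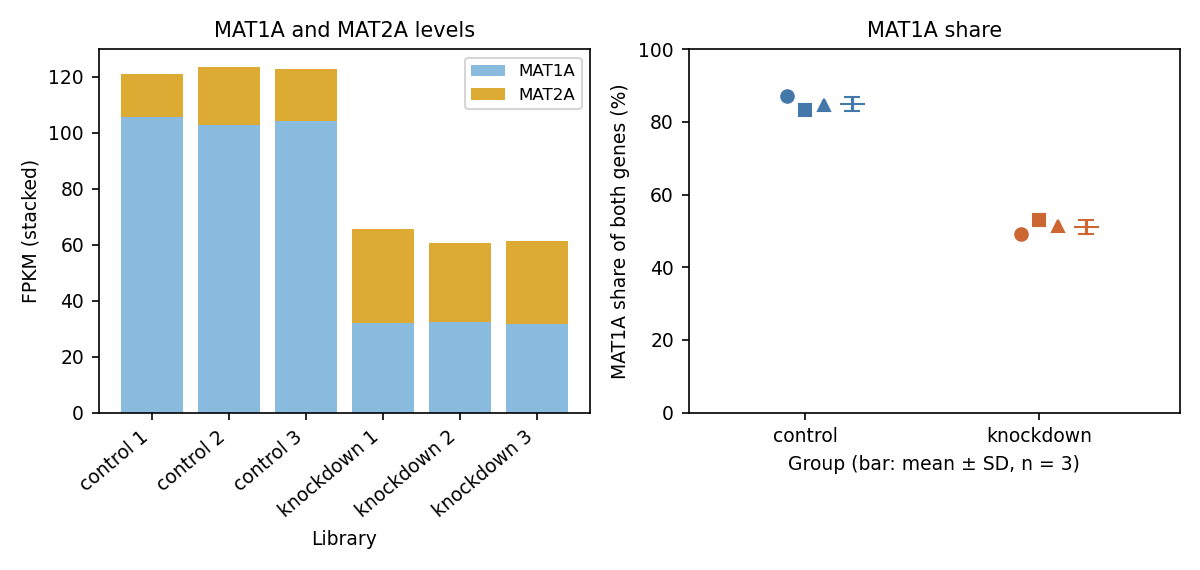
Left, FPKM of MAT1A and MAT2A stacked for each library. Right, the MAT1A share of both in percent, with points for libraries and bars for mean ± SD (n = 3). The share falls from 83.2 to 87.1% in control to 49.0 to 53.0% in knockdown libraries.

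GNMT, the glycine N-methyltransferase that uses up excess AdoMet in hepatocytes, was the weakest member (ENSG00000124713, chromosome 6, 42960754 to 42963880, plus strand). It had 30, 38 and 29 counts in control libraries and 16, 23 and 14 in knockdown libraries, or 2.01, 1.98 and 1.62 CPM and 0.870, 1.25 and 0.793 CPM. All control libraries lay above all knockdown libraries, with knockdown replicate 2 the nearest. GNMT fell by 0.94 (SE 0.29, edgeR adjusted p = 0.00880). With offsets the change was -0.51 and did not pass (edgeR adjusted p = 0.131, and from 0.000661 to 0.156 over the alternatives). The counts are few, and its transcript is the richest in G and C of the 10, at 59.4%. With log2(FPKM + 1) in limma the change was -0.42. PEX6 on the other strand shares 11 bases (1.03%) of its exons, and held 586 to 622 counts in control and 373 to 420 in knockdown libraries.

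AHCY, which removes the inhibitory product of methyl transfer, was the most abundant member (ENSG00000101444, chromosome 20, 34280268 to 34311802, minus strand). Its levels were 1096, 919 and 995 CPM in control and 422, 472 and 416 CPM in knockdown libraries. Every control library lay far above every knockdown library. AHCY fell by 1.20 (SE 0.08, edgeR adjusted p = 3.32e-09), 2.30-fold, by 0.93 with offsets and by 0.76 with quantile normalization. It passed in all 19 alternatives. AL035458.2, which shares 139 bases of its exons, held 0 to 5 counts per library. Of its processed pseudogenes 6 are listed, and together they held 1 count in the 6 libraries.

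Homocysteine is methylated back to methionine by a folate route and by a betaine route. MTR encodes methionine synthase, which takes the methyl group from folate with cobalamin as cofactor (ENSG00000116984, chromosome 1, 236795292 to 236921278, plus strand). MTR had 42.3, 49.4 and 50.0 CPM in control and 51.3, 50.5 and 60.4 CPM in knockdown libraries. The groups came close without overlapping, and the difference of 0.19 did not pass (95% interval -0.01 to 0.39, edgeR adjusted p = 0.0798). It passed as higher in 7 of 19 alternatives, among them library totals (0.39, edgeR adjusted p = 0.00398). With offsets it was -0.07 (edgeR adjusted p = 0.352, with 0.397 the highest over the alternatives).

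MTRR encodes the reductase that restores inactive methionine synthase (ENSG00000124275, chromosome 5, 7851186 to 7906025, plus strand). Its levels of 30.9, 37.9 and 31.7 CPM in control and 31.3, 30.0 and 30.8 CPM in knockdown libraries overlapped. Control replicate 2 stood above the other 5 libraries. The log2 change of -0.13 did not pass (95% interval -0.34 to 0.08, edgeR adjusted p = 0.250). It passed as lower with offsets (-0.40, edgeR adjusted p = 3.38e-05) and without control replicate 1 (-0.20, edgeR adjusted p = 0.0398), and was 0.07 with library totals (edgeR adjusted p = 0.553, the highest over the alternatives). On the other strand FASTKD3 shares 100 bases (1.54%) of its exons with 91 to 171 counts per library, and C5orf49 305 bases (4.69%) with 0 to 3.

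BHMT, the betaine-homocysteine methyltransferase of liver and kidney, was lower (ENSG00000145692, chromosome 5, 79111809 to 79132288, plus strand). Its levels were 10.0, 10.2 and 10.9 CPM in control and 7.18, 5.53 and 7.48 CPM in knockdown libraries. The control libraries lay close together, above all knockdown libraries. BHMT fell by 0.63 (SE 0.14, edgeR adjusted p = 0.000938) and by 0.66 with offsets. With TPM scaling it was at -0.33 and did not pass (edgeR adjusted p = 0.0734, the highest over 19 alternatives). DMGDH, the next enzyme of betaine breakdown, overlaps 239 bases (6.79%) of its exons on the other strand. DMGDH was at 8.97 ± 0.592 and 10.7 ± 1.07 CPM (SD, n = 3) and did not pass (edgeR adjusted p = 0.0916, and up to 0.772). It passed as higher in 6 of 19 alternatives, among them library totals (0.45, edgeR adjusted p = 0.00687) and TPM scaling (0.55, edgeR adjusted p = 0.00348).

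Both transsulfuration genes were lower. CBS encodes cystathionine beta-synthase, which joins homocysteine and serine (ENSG00000160200, chromosome 21, 43053191 to 43076943, minus strand). CBS had 22.6, 21.7 and 15.6 CPM in control and 15.2, 10.8 and 13.8 CPM in knockdown libraries. Control replicate 3 lay just above knockdown replicate 1. CBS fell by 0.58 (SE 0.15, edgeR adjusted p = 0.00265) and by 0.38 with offsets, but did not pass with library totals (-0.38, edgeR adjusted p = 0.0527), with TPM scaling (-0.29, edgeR adjusted p = 0.154) or with limma on FPKM, 4 of 20 alternatives in all. CBSL, a near-identical copy on chromosome 21 at 6444869 to 6468040, may share reads with it: transcripts CBS-203 and CBSL-206 differ at 1 of 2453 bases. CBSL held 13, 40 and 8 counts in control and 66, 3 and 16 in knockdown libraries. The authors' counting may have split CBS reads unevenly, or left out reads that match both genes. The level of CBS, its place among the members and its ratio to CTH may therefore be off, also after summing. The sum of both was 23.4, 23.8 and 16.0 CPM in control and 18.8, 11.0 and 14.7 CPM in knockdown libraries. These groups overlapped, and the summed gene fell by 0.50 (edgeR adjusted p = 0.0173).

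CTH encodes cystathionine gamma-lyase, which releases cysteine from cystathionine (ENSG00000116761, chromosome 1, 70411218 to 70439851, plus strand). CTH had 27.1, 26.6 and 25.0 CPM in control and 18.8, 16.5 and 17.2 CPM in knockdown libraries. The groups were well apart, with little spread in either. CTH fell by 0.58 (SE 0.10, edgeR adjusted p = 8.39e-05) and by 0.65 with offsets. It passed in all 19 alternatives, at -0.29 with TPM scaling (edgeR adjusted p = 0.0250, the highest of them).

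**Figure D3:**
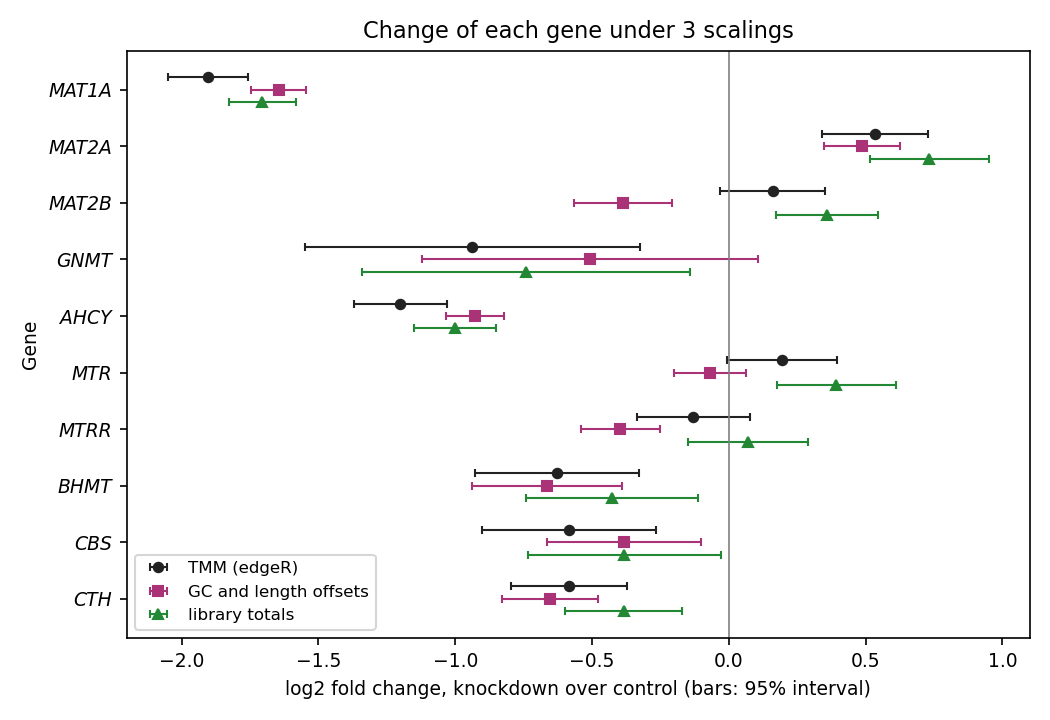
Fold change of each member on the log2 scale, with its 95% interval from edgeR, under TMM, with offsets for GC content and length, and with library totals. The points of MAT1A, AHCY, GNMT, BHMT, CBS and CTH lie below 0 and that of MAT2A above 0 under all 3. Those of MAT2B, MTR and MTRR change side. With offsets the interval of GNMT crosses 0 (-1.12 to 0.106).

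Ratios between members of the same library do not depend on the scaling between libraries, and 6 were compared by an exact two-sided permutation test of 3 against 3 libraries, whose smallest possible p is 0.10. None could therefore pass. The ratio of MAT2A to MAT1A FPKM was 0.148, 0.202 and 0.181 in control and 1.04, 0.886 and 0.949 in knockdown libraries. The groups were far apart, with a difference of 2.45 on the log2 scale (exact permutation p = 0.10, 0.15 adjusted over the 6 ratios), or 2.14 with offsets. The ratio of BHMT to MTR, the betaine route to the folate route, was 0.842, 0.733 and 0.771 in control and 0.496, 0.388 and 0.439 in knockdown libraries. It did not overlap between the groups and differed by -0.83 (exact permutation p = 0.10, adjusted 0.15), or by -0.61 with offsets. MAT2A to MAT2B differed by 0.38 and MTRR to MTR by -0.32, also without overlap (exact permutation p = 0.10 and adjusted 0.15 for each). With offsets MAT2A to MAT2B differed by 0.89. CTH to CBS was 3.38, 3.45 and 4.52 in control and 3.47, 4.27 and 3.50 in knockdown libraries, with a difference of -0.01 (exact permutation p = 1.00). With offsets it differed by -0.28 (exact permutation p = 0.20). The ratio of AHCY to GNMT overlapped between the groups as well, with a difference of -0.23 (exact permutation p = 0.40, adjusted 0.48), and by -0.40 with offsets (exact permutation p = 0.10).

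In FPKM the order of the members in control libraries was AHCY (240 ± 17.4), MAT1A (104 ± 1.33), MAT2A (18.4 ± 2.61), CTH (10.1 ± 0.396), MAT2B (5.08 ± 0.289), MTRR (4.81 ± 0.613), MTR (3.56 ± 0.370), BHMT (2.77 ± 0.134), CBS (2.74 ± 0.516) and GNMT (1.62 ± 0.184; SD, n = 3 each). Neighbours whose ranges overlapped were MAT2B with MTRR and BHMT with CBS. The order depends on the exonic lengths used, for CBS 6786 bases, while transcript CBS-203 has 2453. In knockdown libraries AHCY (120 ± 6.67) was still first and GNMT (0.962 ± 0.225) last. There MAT1A (31.9 ± 0.370) overlapped MAT2A (30.6 ± 2.49), MTRR (5.05 ± 0.182) overlapped MTR (4.69 ± 0.520), and CBS (2.10 ± 0.380) overlapped BHMT (2.07 ± 0.350).

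Genes around the cycle were taken from 6 lists with 71 genes, of which 69 were tested. Of these 43 fell and 11 rose, or 31 and 17 with TPM scaling. NNMT and SLC7A8 had too few counts to be tested. The main counts can be read beside the 32.4% of all genes that passed as lower and the 36.1% that passed as higher, those with TPM scaling beside 19.7% and 49.6%, and those with offsets beside 33.8% and 35.4%. The lists, like the members, were chosen with earlier results of these data known, so a gap to these shares is no test of the lists. In each list the 3 genes with the smallest p are named. Genes named beyond these were chosen after their values were seen.

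The list of methionine salvage and AdoMet decarboxylation takes in enzymes of polyamine synthesis and of the route that recovers methionine from it. Of its 8 genes 7 fell and 0 rose (median -0.41), against 2 lower with TPM scaling and 8 with offsets. ADI1, the acireductone dioxygenase of the salvage route, went from 181 ± 13.6 to 63.8 ± 0.820 CPM (SD, n = 3; log2 change -1.50, edgeR adjusted p = 2.07e-10). SRM, spermidine synthase, fell by 1.55 (131 ± 12.8 to 44.6 ± 2.82 CPM) and SMS, spermine synthase, by 0.41, though SMS did not pass with TPM scaling (-0.11, edgeR adjusted p = 0.202, the highest over its alternatives). AMD1, the AdoMet decarboxylase that starts this branch, did not pass (log2 change -0.06, edgeR adjusted p = 0.556). Its levels were 123 ± 16.9 CPM in control and 118 ± 4.19 CPM in knockdown libraries (SD, n = 3). AMD1 passed as lower with offsets (-0.66, edgeR adjusted p = 3.22e-09) and without control replicate 1 (-0.17, edgeR adjusted p = 0.0434, with 0.990 the highest over its alternatives). With offsets ADI1 was at -1.67, SRM at -1.11 and SMS at -0.31.

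Of 15 genes that supply methyl groups through betaine, folate and cobalamin, 9 fell and 3 rose (median -0.52), 8 and 5 with TPM scaling and 9 and 3 with offsets. SHMT2 and SHMT1, the mitochondrial and cytosolic serine hydroxymethyltransferases, fell by 1.39 and 1.28. MTHFD1, the trifunctional folate enzyme of the cytosol, fell by 1.13. BHMT2, a homologue of BHMT beside it on chromosome 5, fell by 0.52, from 81.3 ± 0.944 to 56.5 ± 2.68 CPM. The 3 that rose all handle cobalamin: LMBRD1, its lysosomal exporter, rose by 1.09 (0.45 with offsets), MMADHC, which directs it to its enzymes, by 0.40, and the carrier TCN2 by 1.19 from 0.816 to 1.82 CPM with overlapping groups. TCN2 did not pass without knockdown replicate 2 (edgeR adjusted p = 0.0611, up to 0.0870 with quantile normalization). MMACHC, which processes cobalamin in the cytosol, and its receptor CD320 fell by 1.17 and 0.84, so the genes of this cofactor went both ways. With offsets SHMT2 was at -1.13, SHMT1 at -1.18, MTHFD1 at -1.28, BHMT2 at -0.38, MMADHC at 0.28, TCN2 at 1.52, MMACHC at -1.13 and CD320 at -0.44.

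Of 14 genes of cysteine use and glutathione synthesis, 7 fell and 3 rose (median -0.43). With TPM scaling 4 fell and 4 rose, and with offsets 5 fell and 3 rose (median -0.16). GSS, glutathione synthetase, is among the 7 but lost its call in 11 of 19 alternatives (log2 change -0.23, edgeR adjusted p = 0.0200, and up to 0.714). MPST, which moves sulfur from mercaptopyruvate, fell by 0.93, and SUOX, sulfite oxidase, by 0.99. SQOR, the mitochondrial enzyme that oxidises hydrogen sulfide, rose by 1.29, from 13.3 ± 0.959 to 32.5 ± 1.49 CPM (SD, n = 3; edgeR adjusted p = 1.88e-08). The others that rose were CSAD, which makes hypotaurine, by 1.21, and the aminotransferase GOT1 by 0.59. Of the subunits of glutamate-cysteine ligase GCLM fell by 0.49 (not passing with TPM scaling, edgeR adjusted p = 0.143, the highest over its alternatives), and GCLC, at -0.03, did not pass (edgeR adjusted p = 0.763). With offsets both passed as lower, GCLM at -0.99 (edgeR adjusted p = 1.37e-10) and GCLC at -0.25 (edgeR adjusted p = 0.000406). GCLC passed as higher with TPM scaling (0.26, edgeR adjusted p = 0.0264, with 0.952 the highest over its alternatives). With offsets MPST was at -0.77, SUOX at -0.84, SQOR at 1.53, CSAD at 1.37 and GOT1 at 0.86.

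Of 17 tested methyltransferases that use AdoMet, 12 fell and 1 rose (median -0.64), 9 and 3 with TPM scaling and 14 and 0 with offsets (median -0.37). GAMT, which makes creatine in the liver, went from 203 ± 25.8 to 72.7 ± 5.57 CPM (SD, n = 3; log2 change -1.48, edgeR adjusted p = 1.67e-09). The arginine methyltransferases PRMT5 and CARM1 fell by 1.05 and 0.78. HNMT, the histamine methyltransferase, was the 1 that rose, by 0.47, but it was at -0.13 with offsets (edgeR adjusted p = 0.0288, with 0.0520 the highest over its alternatives). NNMT, which methylates nicotinamide and is a large AdoMet consumer in other cells, held 0 counts in the control libraries and 1 count in the knockdown libraries. With offsets GAMT was at -1.10, PRMT5 at -0.84 and CARM1 at -0.45.

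The 6 tested transporters of methionine and cystine split, with 3 lower and 3 higher. SLC38A2, a sodium-coupled carrier of small neutral amino acids and methionine, rose by 1.88, from 407 ± 66.4 to 1498 ± 50.2 CPM (SD, n = 3; edgeR adjusted p = 2.55e-10). SLC43A2 rose by 0.88, and SLC7A11, the cystine exchanger, by 0.38, though it was at -0.33 with offsets (edgeR adjusted p = 4.50e-05). SLC7A11 did not pass without knockdown replicate 1 (edgeR adjusted p = 0.0552, the highest over its alternatives) or without knockdown replicate 3 (edgeR adjusted p = 0.0543). SLC7A5, the light chain of the LAT1 exchanger, fell by 0.94, its heavy chain SLC3A2 by 0.81 and SLC43A1 by 1.01. The median was -0.22, and 0.08 with TPM scaling. With offsets 4 fell and 2 rose, with SLC38A2 at 1.39, SLC43A2 at 1.01, SLC7A5 at -0.64, SLC3A2 at -0.56 and SLC43A1 at -0.69.

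Of 9 AHCY-like proteins and regulators, 5 fell and 1 rose (median -0.48), 5 and 2 with TPM scaling and 7 and 1 with offsets. MYBL2, a transcription factor of dividing cells, fell by 1.77 (304 ± 30.6 to 89.3 ± 2.26 CPM). HNF4A and CEBPA, factors of hepatocyte identity, fell by 1.49 and 1.34. MYC and ATF4 fell by 1.12 and 0.48, ATF4 not passing with quantile normalization (-0.09, adjusted p = 0.125 by limma, the highest over its alternatives). AHCYL1, which resembles AHCY but does not split its substrate, rose by 0.24 (111 ± 0.236 to 131 ± 3.95 CPM; SD, n = 3). Without control replicate 3 AHCYL1 did not pass (edgeR adjusted p = 0.0769, the highest over its alternatives). With offsets MYBL2 was at -1.39, HNF4A at -1.39, CEBPA at -0.91, MYC at -0.91, ATF4 at -0.17 and AHCYL1 at 0.28.

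**Figure D4:**
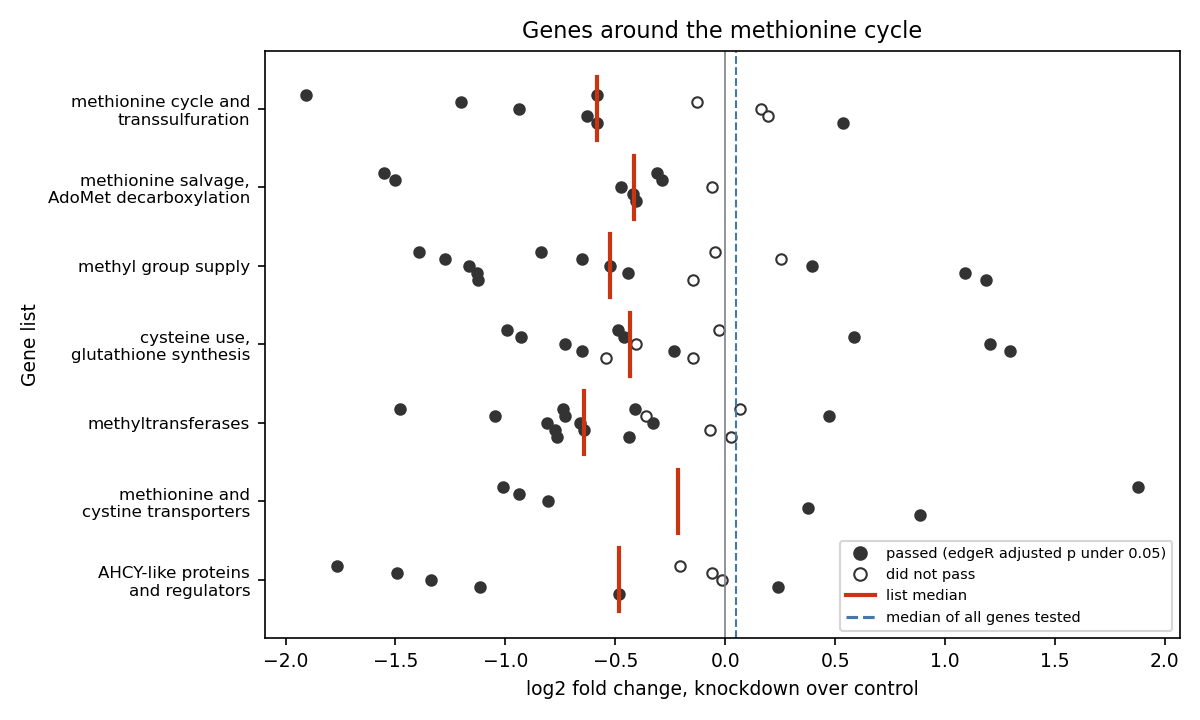
Fold change on the log2 scale of each tested gene, for the 10 members and for 6 lists of genes around the methionine cycle. Filled points passed edgeR at an adjusted p under 0.05, red lines are list medians, and the dashed line is the median of all genes tested (0.05). Points of salvage genes lie below 0, and those of transporters lie on both sides.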

How the data were processed

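The authors deposited raw counts per Ensembl gene for 6 libraries, with FPKM and the exonic length of each gene, per the file headers. No source used here gives the aligner, the counting program or the strand setting. GRCm38, mm10 and hg18 stand in the submitters' processing notes without a role. Of the gene identifiers 96.3% were in GENCODE 29 (GRCh38), and 99.8% of those overlapped its coordinates. The deposited FPKM equalled counts per length and library total within 0.0051 for 100% of values in 5 numbered columns. The other FPKM column, 1 in all, has no replicate number and was not used, so FPKM was computed from counts. The shRNA label of knockdown replicates 2 and 3 names circPRKAA2 and circPRKAA3, and groups follow the titles.

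Genes kept by filterByExpr (minimum count 10, minimum total 15) were scaled by TMM and tested with edgeR 4.0.16 (R 4.3.3), with Benjamini-Hochberg adjustment. Alternatives were other scalings and filters, DESeq2 1.42.0, limma 3.58.1 on log2(FPKM + 1) or log2(FPKM + 0.1) and on quantile-normalized log2 CPM, the replicate number as a block, each library left out, and CBS summed with CBSL. Offsets per library came from a smooth fit on GC content of the longest transcript and exonic length (mgcv 1.9.3). Some of the fits, the main one among them, were run on simulated counts with few changed genes and no trend with GC content, length or composition. That setting is milder than these data, where 68.4% of genes passed, and does not cover their shifts. Libraries of each group differed by more than sampling noise (chi-square over its degrees of freedom 3.82 to 16.1). The members and lists were chosen with earlier results of these data known. The naming rule took all members, the 3 smallest p among passing genes in each list, and copies or overlapping genes that bear on a member's count. Other genes were named after their values were seen.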

Additional observations from a re-analysis of the deposited data

How the results depend on the processing

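MAT1A, AHCY, CTH and MAT2A kept their direction and passed in each alternative. The count of members called higher was 1, and became 3 with library totals, upper quartile factors, TPM scaling, a mean FPKM of at least 1, and limma on log2(FPKM + 1) or log2(FPKM + 0.1), and 2 with quantile normalization. The members called lower were 4 with TPM scaling, 5 with library totals and 7 with offsets. Over all genes, lower calls went from 4852 to 2956 with TPM scaling, and higher calls in the lists around the cycle from 11 to 17. Higher genes made up 52.7% of calls under TMM, 65.8% under library totals, 71.6% under TPM scaling and 65.2% with limma on log2(FPKM + 1). Library totals moved the median log2 change of all genes by 0.20, TPM scaling by 0.29 and limma on log2(FPKM + 0.1) by 0.19. Leaving out the filter moved it by 0.19, with more genes tested.

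Signs turned for MAT2B (-0.39 with offsets, and -0.39 with the replicate block added), MTR (-0.068 and -0.067) and MTRR (0.070 with library totals, 0.16 with TPM scaling, 0.064 and 0.077 with limma on FPKM). The cause was not tested. The knockdown share of MAT1A moved from 51.1% to 53.8% with offsets, and was 50.2 to 52.2% with libraries left out (control 83.9 to 85.9%). With libraries left out the ratio of CTH to CBS differed by -0.10 to 0.13, so its sign turned. Members called lower were then 6 to 7, and called higher 1. Same-numbered libraries did not deviate together (correlations -0.0918, -0.149 and 0.0407). With the replicate block 5216 genes were higher and 4627 lower, 1 and 6 among the members. GNMT rests on 14 to 38 counts per library.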
